A study of Mus musculus with 2 samples.

Results

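The genes described here are 47 genes of mitosis, the spindle and cytokinesis, chosen by their symbols and grouped by role into 9 kinases and cyclins, 20 kinetochore and checkpoint genes, 12 spindle and cytokinesis genes and 6 genes of chromosome structure. This set and the lists set beside it were chosen with earlier results of these data known. Shares and medians below therefore describe them and are no test. All 47 had a probe on the arrays, out of 28090 gene names in all. The cells were primary keratinocytes of the epidermis from K14-caSmad1 mice and from wild-type mice, all of the FVB/NJ strain and at day 20 after birth. K14-caSmad1 mice carry a transgene for a constitutively active form of Smad1, a transcription factor of BMP signalling. The keratin 14 promoter that such transgenes are named for is active in basal keratinocytes of the epidermis and of the hair follicle. Each of 2 arrays set K14-caSmad1 RNA, labelled with Cy5, against wild-type RNA, labelled with Cy3, so dye and genotype cannot be told apart. The labels number the arrays as biological replicates 1 and 2 but do not say how many animals or cultures lay behind each RNA, and each genotype was therefore counted as 1 sample. All values below are either log2 ratios, positive where K14-caSmad1 was higher, or levels, meaning normalised intensities of a channel, and a gene is said to have risen if it was at least 2-fold higher on both arrays.

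Mitosis divides duplicated chromosomes between daughter cells. Cyclin A and cyclin B with their kinase Cdk1 drive entry, condensins compact the chromosomes, kinetochores tie them to spindle microtubules, and the spindle assembly checkpoint holds the anaphase-promoting complex back until all are attached. Cytokinesis then cuts the cell at the spindle midzone. Most genes of this machinery are transcribed late in the cell cycle, and in skin their transcripts mark the dividing cells of the basal layer and of the hair matrix. Their promoters often hold a cell cycle homology region (CHR), which the MuvB complexes with B-Myb or with the DREAM repressor bind, and CCAAT boxes, which NF-Y binds.

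Promoters of 40 of the 47 genes were found in RefSeq, with 45 gene starts on GRCm38.p6. Aurkb, Ccna2, Foxm1, Incenp, Kif20a, Smc4 and Tpx2 were not matched. Each window held 300 bases, 250 before and 50 after the start. The promoter of the gene with the highest ratio among those matched in each role is printed as an example. Capitals mark the CHR letters searched, TTTGAA or TTTAAA, and the CCAAT box, CCAAT or its reverse complement ATTGG, both searched on either strand.
Mki67, chr7:135716330-135716629, minus strand: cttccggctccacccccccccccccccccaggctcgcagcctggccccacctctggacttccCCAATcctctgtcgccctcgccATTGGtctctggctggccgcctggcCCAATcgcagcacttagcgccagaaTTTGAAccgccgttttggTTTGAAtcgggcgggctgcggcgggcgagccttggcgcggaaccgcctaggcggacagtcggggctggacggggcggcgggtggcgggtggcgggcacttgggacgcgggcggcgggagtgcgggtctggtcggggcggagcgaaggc
Ccnb1, chr13:100786437-100786736, minus strand: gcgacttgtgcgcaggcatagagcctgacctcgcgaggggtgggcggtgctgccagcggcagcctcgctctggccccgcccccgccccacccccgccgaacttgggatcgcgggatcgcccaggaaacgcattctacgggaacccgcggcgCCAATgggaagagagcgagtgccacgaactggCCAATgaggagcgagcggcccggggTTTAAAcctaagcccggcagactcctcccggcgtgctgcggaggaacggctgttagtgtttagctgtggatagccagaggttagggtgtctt
Birc5, chr11:117848987-117849286, plus strand: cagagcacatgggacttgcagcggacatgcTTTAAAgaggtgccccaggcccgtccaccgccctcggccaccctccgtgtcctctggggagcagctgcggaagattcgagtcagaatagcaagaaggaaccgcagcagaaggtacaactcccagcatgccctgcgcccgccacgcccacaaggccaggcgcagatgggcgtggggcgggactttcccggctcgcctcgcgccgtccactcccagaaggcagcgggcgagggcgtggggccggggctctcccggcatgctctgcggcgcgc
Ect2, chr3:27153805-27154104, minus strand, the first of its 2 starts: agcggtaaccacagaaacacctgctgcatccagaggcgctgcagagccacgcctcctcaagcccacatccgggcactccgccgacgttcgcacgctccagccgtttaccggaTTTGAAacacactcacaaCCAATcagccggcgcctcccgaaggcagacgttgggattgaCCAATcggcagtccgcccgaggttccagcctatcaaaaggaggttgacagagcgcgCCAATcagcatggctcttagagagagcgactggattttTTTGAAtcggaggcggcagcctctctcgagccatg

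Mki67 had 3 CCAAT boxes at -188, -166 and -141 bases from the start and CHR letters at -116 and -98. Ccnb1 had CCAAT boxes at -99 and -67 and CHR letters at -42. Birc5 held only CHR letters, at -220. Ect2 had 3 CCAAT boxes at -120, -79 and -23, with CHR letters at -138 and, past the start, at 16. A match is a run of letters, not a measured binding site.

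CHR letters stood in 35 of the 45 promoters (77.8%), against 27.6% of 32851 mouse promoters of the same length. A CCAAT box stood in 35 promoters (77.8%), against 37.4% of all promoters, and at least 2 boxes stood in 51.1%, against 11.7%. Both motifs together were in 66.7% of the promoters, against 10.7% of all. The 38 promoters of DNA replication and nucleotide supply genes, which are transcribed earlier in the cycle, held CHR letters in 21.1% and a CCAAT box in 55.3%. The letters TTTGGCGC or TTTCCCGC of an E2F site were in 1 promoter of the 45 (2.22%), that of Ncapd2, in 26.3% of the replication promoters and in 1.56% of all.

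By gene, all 6 matched kinase and cyclin genes held CHR letters and a CCAAT box. CHR letters were in 13 of 19 kinetochore and checkpoint genes, in 9 of 10 spindle genes and in 4 of 5 chromosome structure genes. Mad2l1, Ncaph, Nuf2, Nusap1 and Pttg1 held neither motif, so these letters were missing from the window of Nusap1, one of the genes with the highest ratios below. Among the measured genes the 26 with CHR letters had a median log2 ratio of 0.84 and the 7 without them 0.87. The same medians were 0.77 for the 26 with a CCAAT box and 1.03 for the 7 without one. These are descriptions with no test.

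**Figure D1:**
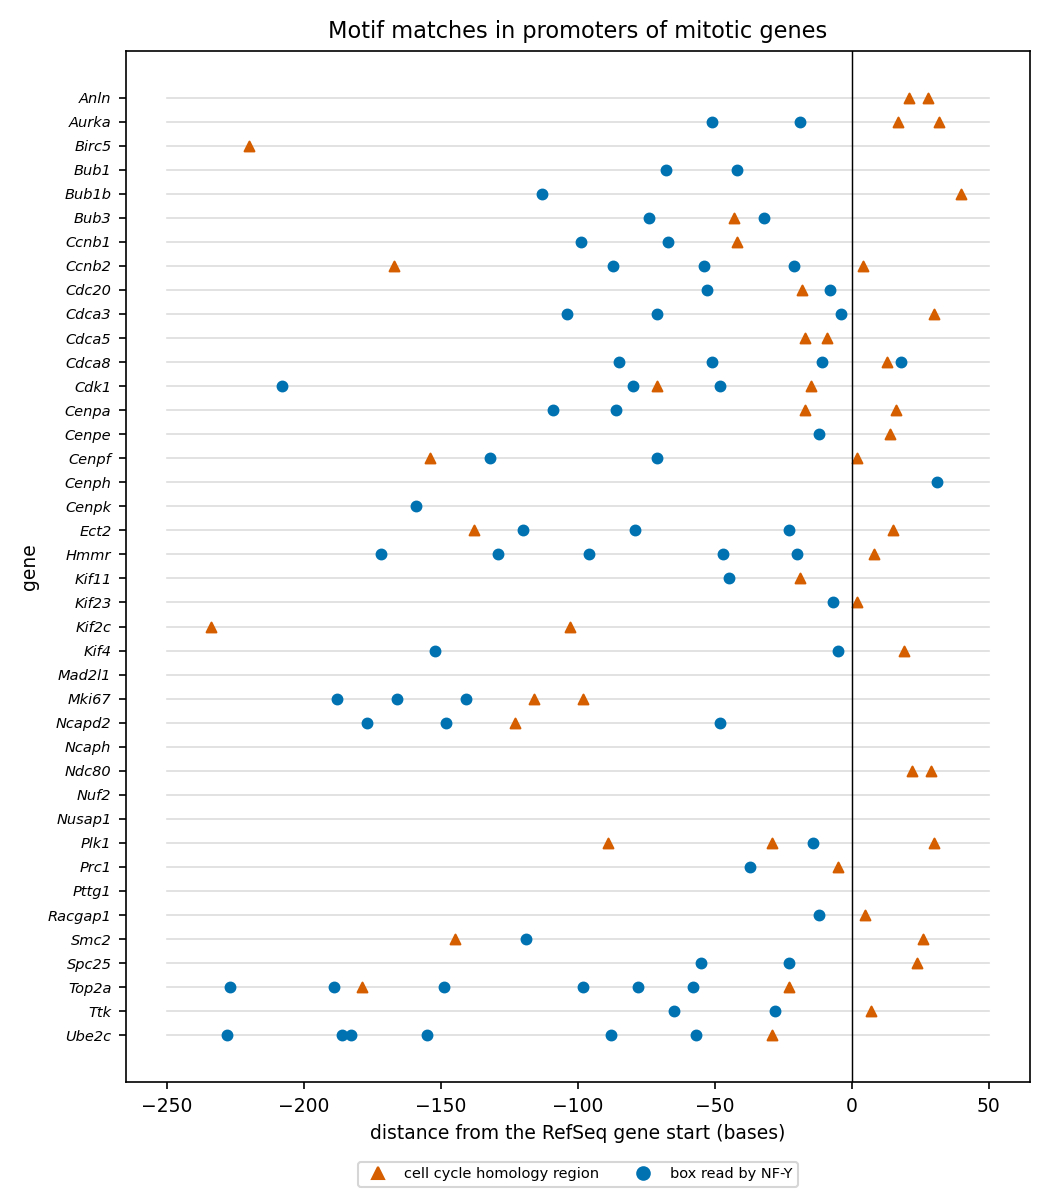
Positions of CHR letters (triangles) and CCAAT boxes (circles) in the promoters of 40 mitotic genes, as distance in bases from the RefSeq gene start (the first listed start where a gene has several). Mad2l1, Ncaph, Nuf2, Nusap1 and Pttg1 have none.

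Nearly the whole set lay above 0. With the brightest probe taken for each gene and no filter on dim probes, 45 of the 47 genes had a mean log2 ratio above 0, against 50.56% of all 28090 genes, and the exceptions were Tpx2 and Foxm1. The median over the 47 was 0.72, against 0.00 over all genes. At least 2-fold higher on both arrays were 12 of the 47, against 1.71% of all genes, and 0 of the 47 were at least 2-fold lower. In 2 of the 12, Anln and Bub1, wild type was not well above background on either array, so that their 2-fold rests on a dim signal. In 2 more, Cenpk and Kif4, the probe used showed wild type well above background on 1 array only. In bulk RNA, more dividing cells and more of a transcript per dividing cell cannot be told apart.

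A gene counted as measured if, in at least 1 channel, both arrays flagged one of its probes as well above background, which held for 38 of the 47 and for 11769 genes in all. Of these 38, 13 were fully detected in K14-caSmad1 keratinocytes but in wild type on 1 array or none, so they could pass the filter through the channel in which they were high. The 26 genes with a probe detected in both channels on both arrays are free of that. In them 25 were above 0, 8 had risen, against 4.61% of 9945 such genes, and the median was 0.84, against 0.01. Under the wider filter the 12 genes that rose stand against 4.08% of all measured genes, and the 0 that fell 2-fold against 9.81%. With limma and Benjamini-Hochberg adjustment at 0.05, read here only as how closely the arrays repeated, 36 of the 38 were called higher and 1 lower, against 40.9% and 46.3% of all measured genes. In 33 of the 38 both K14-caSmad1 levels stood above both wild-type levels, against 34.2% of all measured genes, and the others were Bub3, Ccnb2, Cdca3, Cdca8 and Tpx2. All 13 genes that could pass the filter through the channel in which they were high are among the 33. With the probe used, 25 genes were detected in both channels on both arrays, and 20 of them had such levels. The share over all genes so detected was not counted. In the 26 genes with a probe so detected, limma called 24 higher and 1 lower. Over the 9945 such genes it called 8644 in either direction.

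The size of these ratios depended on the background correction. With the processed signals of the scanner software the median of the 38 was 1.46 and 26 genes were at least 2-fold higher on both arrays, against 10.7% of all measured genes. With every spot in the background fit the median was 0.63 and 3 genes, Nusap1, Birc5 and Mki67, were, against 2.57% of all measured genes. The median of all measured genes stayed between -0.04 and 0.02 under each background setting. Anln, dim in wild type, moved to 3.23 with the processed signals, and Birc5, bright in both channels, to 1.77.

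**Figure D2:**
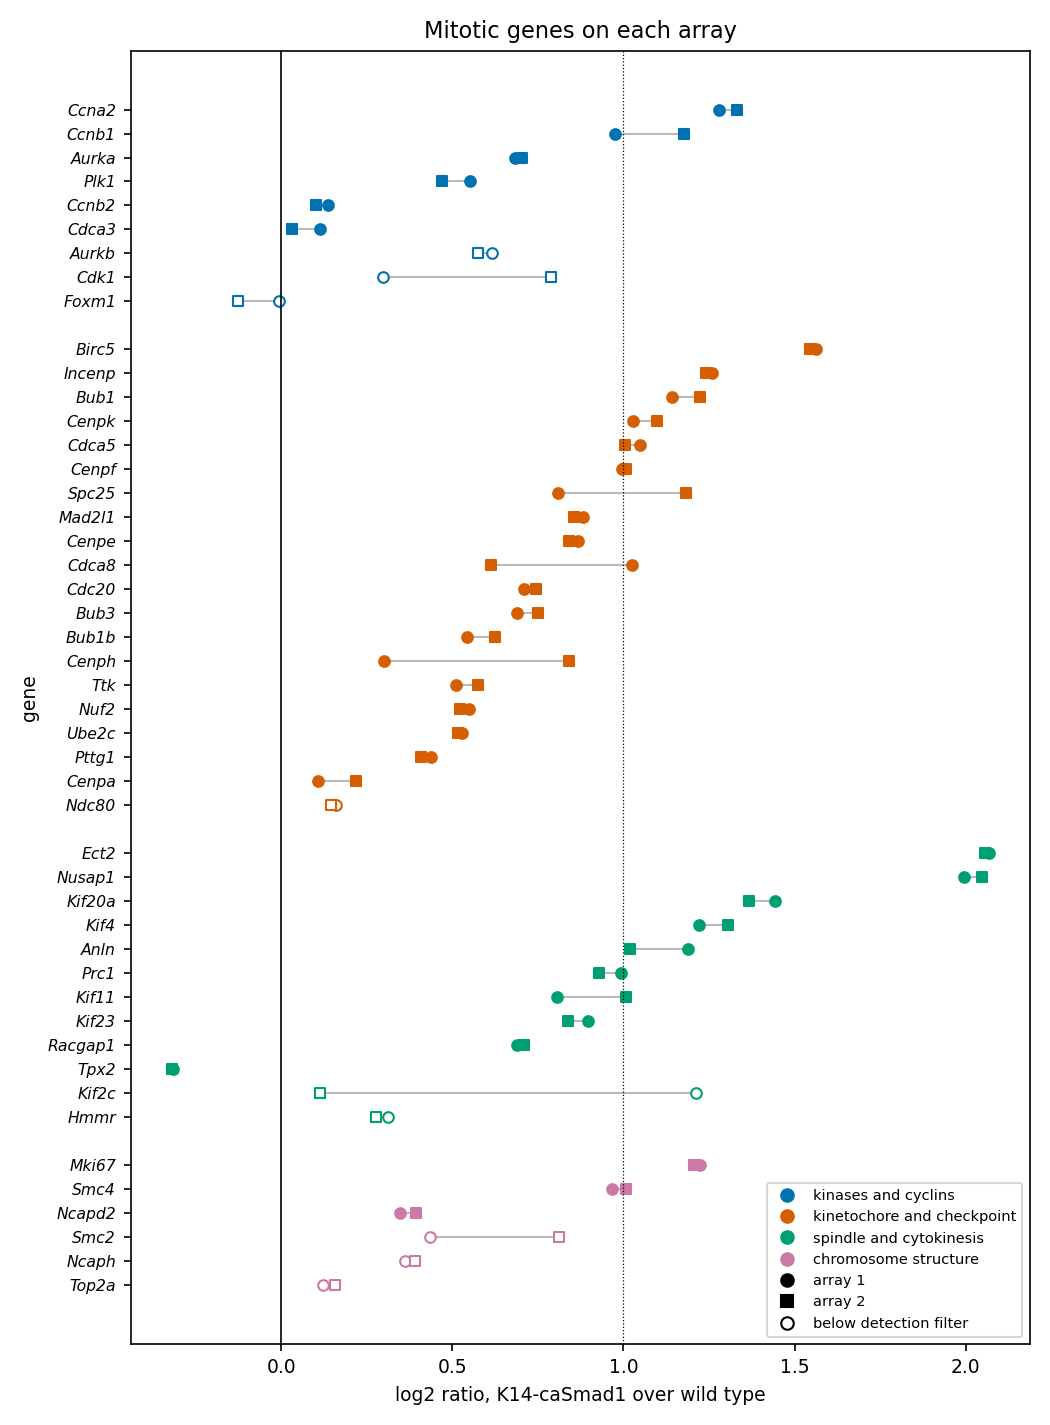
Log2 ratio of K14-caSmad1 over wild type for each of the 47 mitotic genes on array 1 (circles) and array 2 (squares), by role, with open symbols for the 9 genes below the detection filter. The dotted line marks 2-fold higher, and Tpx2 and Foxm1 are the genes left of 0 on both arrays.

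Among the kinases and cyclins, Ccna2, the cyclin A of S phase and early mitosis, had levels of 3356 and 3603 in K14-caSmad1 keratinocytes and 1383 and 1430 in wild type. The groups did not overlap, and its ratios of 1.28 and 1.33 made it the one gene of this group that rose. Ccnb1, the main mitotic cyclin, had levels of 707 and 659 in K14-caSmad1 cells and 360 and 292 in wild-type cells, where it was not well above background. Its ratios were 0.98 and 1.18, and as a bound this probe was at least 1.68-fold higher. Such a bound sets the K14-caSmad1 level against the higher of the wild-type signal and the lowest detected signal of that channel. It holds only for the probe and background setting used, here and below, and is no limit for the gene in general. For Bub1, Cenph and Kif11, whose wild-type signal was the higher, it is no lower than the measured fold, so none is given. With every spot in the background fit the Ccnb1 ratio was 0.44, a smaller fold than its bound. The same held without background subtraction for Mad2l1 (0.53), Spc25 (0.64), Racgap1 (0.44), Bub1b (0.34) and Ttk (0.33), whose bounds are given below. A further tested Ccnb1 probe gave a mean ratio of 0.77 and a bound of 1.40-fold. Ccnb2, the cyclin B of the Golgi, stood at 2425 and 1884 in K14-caSmad1 cells and 2206 and 1756 in wild-type cells. Those levels overlapped, and its mean ratio of 0.12 was far smaller than that of Ccnb1.

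Aurka, the kinase of centrosomes and spindle poles, had levels of 1871 and 1728 in K14-caSmad1 cells and 1166 and 1062 in wild-type cells, a mean log2 ratio of 0.69. Plk1, which acts from centrosome maturation to cytokinesis, had levels of 1575 and 1347 in K14-caSmad1 cells and 1074 and 972 in wild-type cells. Its mean ratio was 0.51. Neither reached 2-fold on an array, and in both genes the groups did not overlap. Cdca3, which helps to degrade the mitosis inhibitor Wee1, gave 0.11 and 0.03 and was not called by limma (adjusted p = 0.1). Cdk1, the kinase partner of the mitotic cyclins, Aurkb, the kinase of the chromosomal passenger complex, and Foxm1, a transcription factor of late cell cycle genes, did not pass the filter. Unfiltered, Cdk1 gave 0.30 and 0.79, Aurkb 0.62 and 0.57, and Foxm1 -0.01 and -0.13. These 3 genes are too dim for their ratios to be read as levels.

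The chromosomal passenger complex corrects wrong attachments at the centromere and later moves to the midzone. Its survivin subunit Birc5 had levels of 6626 and 5622 in K14-caSmad1 cells and 2243 and 1927 in wild-type cells. Survivin rose by 1.56 and 1.54, the highest ratio among kinetochore and checkpoint genes. The scaffold Incenp had levels of 3053 and 2792 in K14-caSmad1 cells and 1277 and 1182 in wild-type cells, and it rose by 1.26 and 1.24. Borealin, encoded by Cdca8, was less steady. It had levels of 2974 and 4871 in K14-caSmad1 cells and 1461 and 3187 in wild-type cells, with ratios of 1.03 and 0.61. Array 2 was brighter in both channels, and the groups overlapped.

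The checkpoint genes were higher to unequal degrees. Bub1, a checkpoint kinase at the kinetochore, had levels of 940 and 1010 in K14-caSmad1 cells and 426 and 432 in wild-type cells, where it was not well above background. Its ratios were 1.14 and 1.22, a mean of 2.27-fold, but 0.81 without background subtraction and 0.72 with every spot in the background fit, while a second Bub1 probe that was detected in no channel gave -1.15 and -1.41. Mad2l1, which holds Cdc20 back, was at least 1.57-fold higher, with a ratio of 0.87 and 1.06 from a second probe. Bub1b, its partner in that inhibitor, was at least 1.35-fold higher and Ttk, the kinase that starts the checkpoint, at least 1.38-fold. Wild type was below detection in these as well. Bub3, the adaptor of Bub1 and Bub1b, gave 0.72 from each of its tested probes. With the probe used, its levels of 3070 and 5245 in K14-caSmad1 cells overlapped those of 1902 and 3117 in wild-type cells. Array 2 was brighter in both channels there, and the ratios within the arrays were 0.69 and 0.75. Levels of the second tested probe did not overlap, at 1734 and 1605 in K14-caSmad1 cells against 1021 and 1008 in wild-type cells.

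Genes that build the kinetochore ranged widely. Cenpf, a large protein of the outer kinetochore, had levels of 1909 and 1766 in K14-caSmad1 cells and 958 and 878 in wild-type cells. Its ratios of 0.99 and 1.01 lay on either side of 2-fold. Cenpe, the kinesin that carries chromosomes to the spindle equator, had levels of 1865 and 1692 in K14-caSmad1 cells and 1023 and 944 in wild-type cells, a mean ratio of 0.85. Cenpk, of the inner centromere network, had levels of 962 and 975 in K14-caSmad1 cells and 472 and 455 in wild-type cells, which were detected on 1 array, and rose by a mean of 1.06. Cenph of the same network gave 0.30 and 0.84, the widest gap between arrays among the 38 measured genes, a mean of 1.49-fold with wild type not well above background. Cenpa, the histone that marks the centromere, gave only 0.11 and 0.22. In the NDC80 complex, which grips microtubules, Spc25 gave 0.81 and 1.18 (at least 1.71-fold), Nuf2 0.55 and 0.52, and Ndc80 itself, below the filter, 0.16 and 0.15. The subunits of that complex thus did not share one ratio, and the difference between them was not tested.

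Genes that end the checkpoint or guard cohesion were higher as well. Cdc20, the activator of the anaphase-promoting complex, had levels of 6152 and 5330 in K14-caSmad1 cells and 3760 and 3181 in wild-type cells, a mean ratio of 0.73. Ube2c, the ubiquitin-conjugating enzyme of that complex, had a mean ratio of 0.52, and Pttg1, the securin marked for degradation at anaphase, 0.42. All of these were detected in both channels, and in none did the groups overlap. Cdca5, the sororin that protects cohesin, rose by 1.05 and 1.00, but a second tested probe with a wild-type signal below background gave 0.20. Its call therefore rests on the brighter probe.

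**Figure D3:**
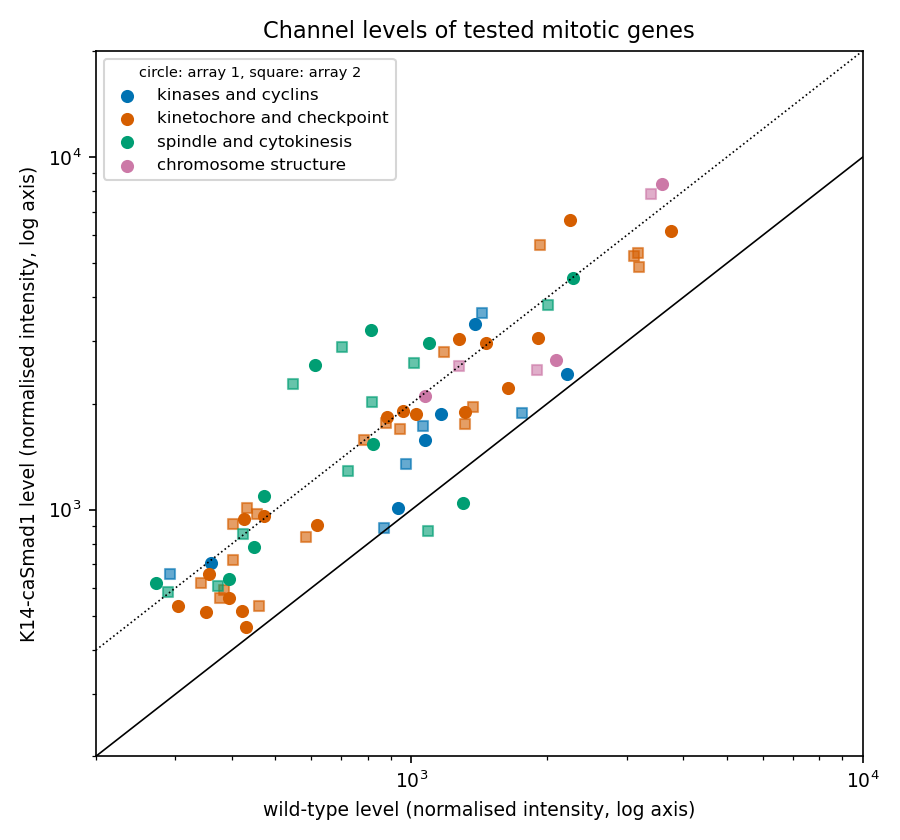
Normalised intensity of the 38 measured mitotic genes in K14-caSmad1 keratinocytes (vertical, log axis) against wild type (horizontal, log axis), with circles for array 1 and squares for array 2. The solid line marks equal levels and the dotted line 2-fold higher in K14-caSmad1; Tpx2 is the gene below the solid line on both arrays.

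The spindle and cytokinesis genes held the highest ratios of the set. Ect2, the exchange factor that switches on RhoA to build the contractile ring, had levels of 2567 and 2275 in K14-caSmad1 cells and 612 and 547 in wild-type cells. It rose by 2.07 and 2.06, about 4.18-fold, and ranked 10 of 11769 measured genes. Nusap1, which bundles spindle microtubules near chromatin, had levels of 3233 and 2900 in K14-caSmad1 cells and 812 and 702 in wild-type cells. It rose by 1.99 and 2.05 and ranked 14. Each of these results rests on 1 tested probe of 60 bases, of which 30 bases from one end are shown to fix what was measured, with positions of the whole probe on mm9, per the file headers. A further Ect2 probe, detected in no channel, gave 0.53 and 0.29, and a further Nusap1 probe, also undetected, -0.03 and 0.44.
Ect2 probe, chr3:26996310-26996369, minus strand, first 30 bases: ctactatggccaagaatattttatttctta
Nusap1 probe, chr2:119475072-119475131, plus strand, first 30 bases: agggaggctggaagaccacatttttgttca

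Midzone genes were also higher. Kif20a, the kinesin that brings Plk1 and the passenger complex to the midzone, had levels of 2977 and 2613 in K14-caSmad1 cells and 1095 and 1014 in wild-type cells and rose by 1.44 and 1.37. A second probe that overlaps the first gave 0.95. Prc1, which crosslinks antiparallel microtubules there, had levels of 4525 and 3813 in K14-caSmad1 cells and 2274 and 2003 in wild-type cells, with ratios of 0.99 and 0.93. Kif23 and Racgap1 form centralspindlin, the complex that recruits Ect2. Kif23 had a mean ratio of 0.87, with 0.82 from a second probe. Racgap1 had 0.70 (at least 1.53-fold by that probe), but 0.26 (at least 1.16-fold) from a second probe. Anln, the anillin of the contractile ring, had ratios of 1.19 and 1.02, but wild type was not well above background. As a bound this Anln probe was at least 1.48-fold higher. Its ratio was 0.64 without background subtraction and 0.58 with every spot in the background fit. Levels in each of these genes did not overlap between the genotypes.

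Kif4, a chromosome-bound kinesin that sets the length of the midzone, had tested probes that overlap and still differed. Its brighter probe had levels of 1097 and 2020 in K14-caSmad1 cells and 471 and 817 in wild-type cells, and rose by 1.22 and 1.31. With this probe wild type was well above background on 1 array only. The second probe was detected in both channels on both arrays. It had levels of 637 and 822 in K14-caSmad1 cells and 485 and 534 in wild-type cells, a mean ratio of 0.51. The probes share 20 bases, in capitals here.
Kif4 brighter probe, chrX:97922126-97922185, plus strand, first 30 bases: AAAGAGGAGGACCTTGGCTGagtgttggcc
Kif4 second probe, chrX:97922085-97922145, plus strand, last 30 bases: agtgtccctgAAAGAGGAGGACCTTGGCTG

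Kif11, the motor that pushes spindle poles apart, gave 0.81 and 1.01, a mean of 1.87-fold with wild type not well above background. Tpx2, which activates Aurka on the spindle and starts microtubule growth near chromatin, was the exception. Its levels were 1047 and 871 in K14-caSmad1 cells and 1304 and 1087 in wild-type cells, with ratios of -0.32 and -0.32 (limma, adjusted p = 0.00066). limma called 46.3% of all measured genes lower, and its call is read only as how closely the arrays repeated. Tpx2 rests on 1 probe and ranked 8008 of 11769 measured genes from the highest ratio. Both K14-caSmad1 levels lay below both wild-type levels, but the share of all genes with such levels was not counted. The ratio stayed below 0 under each of 12 settings, between -0.34 and, with median centring, -0.03. Aurka, with which Tpx2 acts, had a mean ratio of 0.69. Hmmr, a spindle pole protein that binds Tpx2, was below the filter at 0.31 and 0.28. Kif2c, a kinesin that takes microtubules apart at centromeres, was below it as well and gave 1.21 and 0.11.

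Of the genes of chromosome structure, Mki67 coats mitotic chromosomes and is the common marker of cycling cells. Its levels were 8365 and 7852 in K14-caSmad1 cells and 3584 and 3402 in wild-type cells. It rose by 1.22 and 1.21, and a second probe gave 1.31. Smc4, the condensin ATPase, had levels of 2095 and 2557 in K14-caSmad1 cells and 1073 and 1273 in wild-type cells, with ratios of 0.97 and 1.01. Its partner Smc2, the condensin I subunit Ncaph and the topoisomerase Top2a were below the filter. Their unfiltered mean ratios were 0.62, 0.38 and 0.14.

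Ncapd2, a further condensin I subunit, was the gene whose tested probes pointed in opposite directions. The brighter one had levels of 2665 and 2496 in K14-caSmad1 cells and 2095 and 1900 in wild-type cells, a mean ratio of 0.37. The other had levels of 1102 and 966 in K14-caSmad1 cells and 1717 and 1493 in wild-type cells, a mean ratio of -0.63. Both probes lie on the minus strand of chromosome 6 within 1 kb of each other, and the exon of each was not analysed here.
Ncapd2 brighter probe, chr6:125118012-125118066, minus strand, first 30 bases: ccccacccttgtagaagtgcttgttgtctg
Ncapd2 other probe, chr6:125118669-125118728, minus strand, first 30 bases: aatgactttgtcacacctaagccgcgacgt

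Across the set, 84 probes stood for the 47 genes, and 48 of them passed the filter. Of these 48, 46 were above 0, the exceptions being the Tpx2 probe and the second Ncapd2 probe. The share of all 15122 tested probes above 0 was not counted, and 47.64% of all measured genes were above 0. Some of the 48 could pass the filter only through the K14-caSmad1 channel, in which they were high. The arrays repeated closely for most genes under the setting as reported. The difference between arrays had an SD of 0.0946 over 12287 single-spot probes and of 0.145 over the 38 measured genes, with the widest gap, 0.54, in Cenph. Spot noise of repeated probes alone predicts 0.106, which is above the SD seen over single-spot probes. How animals of a genotype vary was not measured.

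By role, the measured genes had medians of 0.60 for 6 kinases and cyclins, 0.82 for 19 kinetochore and checkpoint genes, 1.03 for 10 spindle and cytokinesis genes and 0.99 for 3 genes of chromosome structure. The ranges of the roles overlapped widely, and the difference between them was not tested.

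Other genes of the same processes, listed beside the 47, had lower medians than the 0.87 of the 38 measured genes. Each count of genes that rose stands against 4.08% of all measured genes. Of 13 measured kinases, phosphatases and entry regulators (21 listed), 4 rose, with a median of 0.46. These were Pbk (1.69), Cks1b (1.39), Cks2 (1.30) and Melk (1.09). Pbk and Melk are kinases of dividing cells, and Cks1b and Cks2 are small subunits of cyclin-dependent kinases. Of 22 measured kinetochore, centromere and checkpoint genes (34 listed), only 2 rose (9.09%), with a median of 0.53. Sgol1 (1.40), the shugoshin that guards centromeric cohesin, and Tipin (1.47), of the replication checkpoint, were those. Of 18 measured spindle and cytokinesis genes (30 listed), 6 rose, with a median of 0.64. Shcbp1 (1.59), Sept7 (1.36), Cep55 (1.30), which recruits the abscission machinery, and Stmn1 (1.18), which takes up free tubulin, had the highest ratios of the 6. Of 13 measured cohesin and further condensin genes (15 listed), Ncapg2 (1.32) and the cohesin subunit Rad21 (1.11) rose, and the median was 0.43.

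Of the cell cycle lists, the anaphase-promoting complex had the only median below that of all measured genes. Of its 12 measured core and activator genes (13 listed), 4 were above 0, against 47.64% of all measured genes, and the median was -0.30. In it 0 rose, against 4.08% of all measured genes. Anapc2 alone fell 2-fold on both arrays, at -1.03, as did 9.81% of all measured genes. limma called 3 higher and 8 lower, against 40.9% and 46.3% of all measured genes. Its regulators Cdc20 and Ube2c, given above, were higher. Genes for MuvB subunits, B-Myb, E2F and Rb family factors and NF-Y gave a median of 0.38 over 19 measured genes (22 listed), with 11 called higher and 7 lower by limma, against the same shares, and 0 past 2-fold on both arrays.

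Genes of earlier phases of the cycle were mostly above 0 as well. Of 41 measured DNA replication and nucleotide supply genes (47 listed), 39 were above 0, 9 rose and 0 fell 2-fold. The shares of all measured genes were 47.64%, 4.08% and 9.81%. The median of the 41 replication genes was 0.60. The highest were Mcm4 (1.88) and Mcm6 (1.45) of the replicative helicase, Rrm2 (1.85) of ribonucleotide reductase and Slbp (1.59), which binds histone mRNA. The 5 measured G1 cyclins and their kinases had a median of 0.73, and 0 of them passed 2-fold on both arrays. Against all measured genes, with a median of -0.03, each of these lists except the anaphase-promoting complex lay higher, and no list was tested against another.

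**Figure D4:**
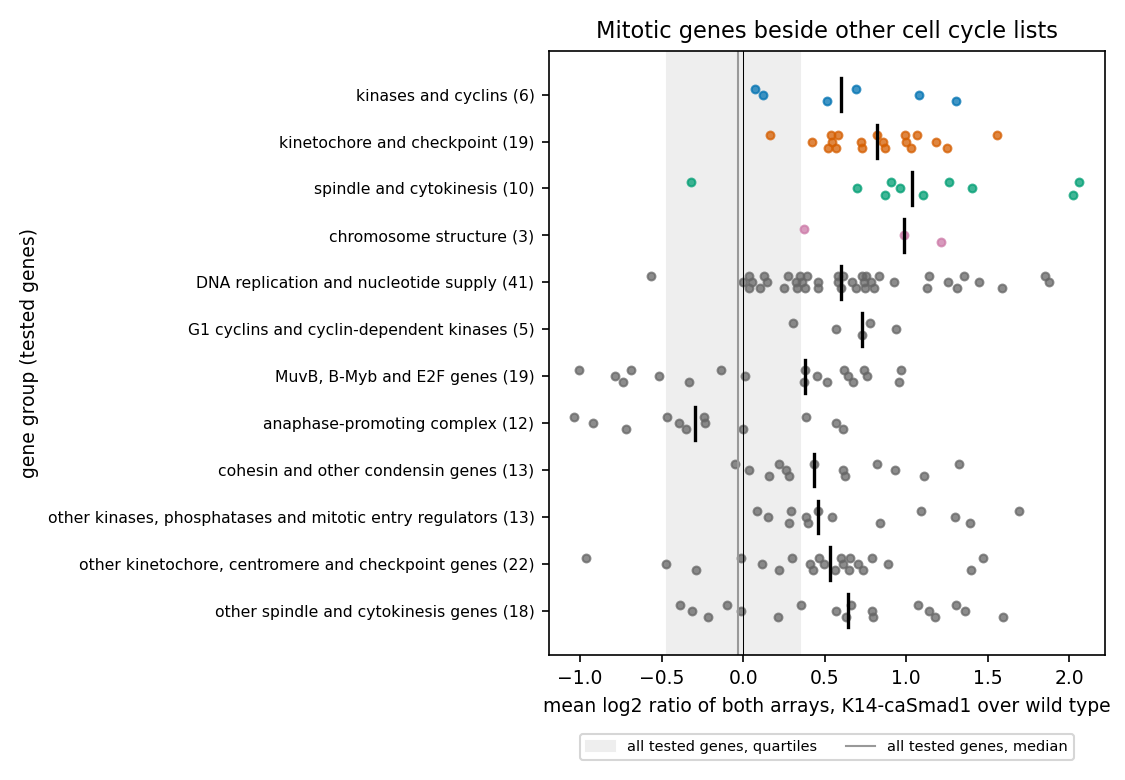
Mean log2 ratio over both arrays, K14-caSmad1 over wild type, for measured genes of the 4 mitotic roles (coloured) and of other cell cycle lists (grey), with a black bar at each median. The shaded band spans the quartiles of all measured genes and the grey line their median, -0.03; the anaphase-promoting complex has the only list median below it.

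Markers of cell types moved between the same RNA samples. The counts in this paragraph and the next stand beside shares of all measured genes. Of those, 4.08% rose and 9.81% fell 2-fold, and limma called 40.9% higher and 46.3% lower. All 12 basal keratinocyte markers were measured and 4 of them rose, with a median of 0.77, and their summed level was 237798 and 282048 in K14-caSmad1 cells against 108312 and 116998 in wild-type cells. Krt5 (1.70), Trp63 (1.69), Itga6 (1.50) and Krt14 (1.07) were those that rose. limma called 9 of the 12 higher and 2 lower, Itga3 (-0.56) and Lama3 (-0.11), named after their values were seen. Of 10 suprabasal markers, with a median of 0.71, 3 rose, Krt2 (4.26), Krt1 (1.80) and Dsg1a (1.25). limma called 7 higher and 2 lower, Flg (-0.80) and Ivl (-0.83), also named after their values were seen. The summed level was 664336 and 677396 in K14-caSmad1 cells against 416301 and 382715 in wild-type cells. Hair matrix and shaft markers went the other way. All 15 measured of 18 listed fell at least 2-fold, with a median of -4.09 and a summed level of 77714 and 77578 in K14-caSmad1 cells against 1686500 and 1799880 in wild-type cells. Transcription factors among them were Msx2 (-3.19), Hoxc13 (-1.48) and Dlx3 (-1.23), named after their values were seen. The matrix factors Lef1 and Foxn1 were not well above background. Krt33a (-5.27), Krt86 (-5.20), Psors1c2 (-5.15) and Krt83 (-4.95) fell most. The part of these cell types in the ratios of the mitotic genes was not tested.

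Of 7 measured melanocyte markers (11 listed) 3 fell 2-fold, against 9.81% of all measured genes. The median of the 7 was -1.16. Their summed level was 4147 and 3580 in K14-caSmad1 cells against 8701 and 8024 in wild-type cells. Tyr, Tyrp1 and Sox10 were not well above background. Of 7 measured fibroblast markers (10 listed), Postn (2.01) and Vim (1.39) rose and 3 collagens, among them Col3a1 (-2.50) and Col1a1 (-1.54), fell. Their median was -0.56, while their summed level was higher, at 40182 and 35827 in K14-caSmad1 cells against 23701 and 22058 in wild-type cells. The 4 measured endothelial markers (9 listed) had a median of -0.71 and a summed level of 1692 and 1608 in K14-caSmad1 cells against 2740 and 2628 in wild-type cells, with Pecam1, Cdh5, Kdr, Tek and Emcn below background. The 10 measured T cell and Langerhans cell markers (12 listed) had a median of 0.10 and a summed level of 58970 and 60911 in K14-caSmad1 cells against 47744 and 51823 in wild-type cells.

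**Figure D5:**
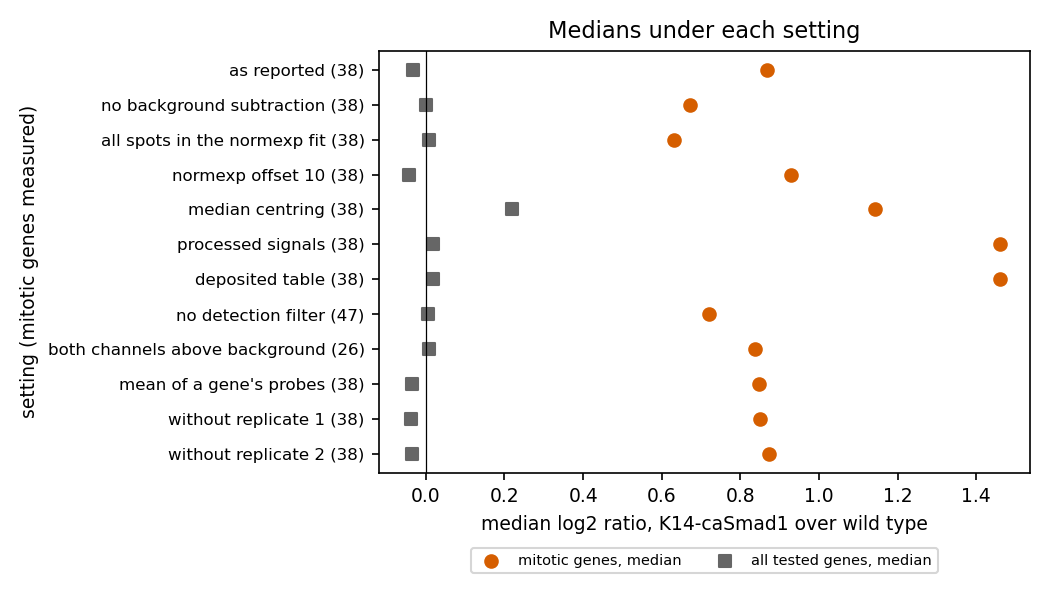
Median log2 ratio, K14-caSmad1 over wild type, of the measured mitotic genes (circles) and of all measured genes (squares) under each processing setting. The mitotic median lies between 0.63 and 1.46 and the all-gene median between -0.04 and 0.22, its highest value under median centring.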

How the data were processed

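The 2-colour Agilent arrays carried RNA of K14-caSmad1 (Cy5) and wild-type (Cy3) keratinocytes. Agilent Feature Extraction 10.5.1.1 wrote the deposited scanner files. They hold mean and local background intensity per spot as scanned, and processed intensity that was background-subtracted, detrended and dye-normalized by that software, per the file headers. Flags and a log10 ratio of Cy5 over Cy3 stand beside them, per the file headers. The deposited series table holds the same log10 ratio (slope 1, medians 0.023 and -0.01, no further centring). Gene spots numbered 43379 per array, and 14412 to 16144 were well above background in a channel. The number of arrays limits the precision.

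With limma 3.58.1 in R 4.3.3, intensity was corrected by normexp (offset 50), leaving out 36 spots of array 1 on a non-uniform local background. Log2 ratios were normalized by loess (span 0.3, control spots at weight 0). Feature outliers were dropped and repeated spots averaged. The brightest tested probe stood for a gene. Channel levels came from Aquantile scaling. lmFit and eBayes tested both arrays against 0 over 11769 genes, as checked on simulated data. Genes named outside the 47 were up to 4 per list with the largest ratio past 2-fold on both arrays. Beyond these, undetected markers and those marked as named after their values were seen are given. The 47 genes and all lists were chosen with earlier results of these data known. Alternatives covered background, normalization, filter, probe choice and arrays.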

Additional observations from a re-analysis of the deposited data

How the results depend on the processing

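Under each setting, 0 of the genes it measured (38, or 26 with both channels above background, or 47 with no filter) were at least 2-fold lower on both arrays. The median of the mitotic genes, 0.87 as reported, was 0.67 without background subtraction, 0.63 with all spots in the normexp fit and 0.93 with an offset of 10. It was 1.14 with median centring, which moved the median of all genes to 0.22, so that the excess was 0.92. It was 1.46 with the processed signals and with the deposited table, 0.72 without a detection filter, 0.84 with both channels above background and 0.85 where the probes of a gene were averaged. Leaving out an array gave 0.85 to 0.87. At least 2-fold higher on both arrays were 12 as reported (4.08% of all genes) and 7 without background subtraction (3.59%). All spots in normexp gave 3 (2.57%) and median centring 21 (9.43%). There were 26 with processed signals (10.7%) or the deposited table (10.6%). On a single array, where 2-fold on that array suffices, 13 to 17 passed (4.51% to 4.66% of all genes). limma called 36 higher, against 23 with all spots in normexp, where its calls over all genes, in either direction, were 3271 against 10253. That setting differs from the reported one only by the 36 spots of array 1 on a non-uniform local background. With a single array there is no residual degree of freedom and limma was not run. Ncapd2 changed sign, to -0.13, when its opposed probes were averaged, which is how that setting is built. For the other changes the cause was not tested. Nusap1, Birc5 and Mki67 were at least 2-fold higher under all 13 settings, and Ect2, Ccna2, Kif20a and Incenp under 12 of them. The 13 include the setting as reported and an intensity trend in limma, which leaves the ratios unchanged. The deposited table nearly repeats the processed signals, so the settings are not independent. Signal over background limits the 9 undetected genes and the sizes of the 10 that wild type did not show above background.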
